A study of Mus musculus with 8 samples.

Results

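The estrogen-related receptors are a family of 3 orphan nuclear receptors, encoded in mice by *Esrra*, *Esrrb* and *Esrrg*. Together with *Gm36388*, a non-coding gene on the opposite strand inside *Esrrg*, they make up the 4 genes described here, out of 31053 genes counted. The genes were chosen by the genotype difference of *Esrrg* in microglia, so the microglial genotype values below are given as a description and without a test. Cortical nuclei of C57BL/6J mice aged 6 weeks were profiled by single-nucleus RNA sequencing (snRNA-seq), which counts unique molecular identifiers (UMIs), 1 per captured RNA molecule. Each genotype, wild-type (Wt) or Ifnar1-/-, was represented by 4 mice, of which 2 were female (F1, F2) and 2 male (M1, M2), with 1 library per mouse. All were naive, and the Ifnar1-/- mice lack the type I interferon receptor subunit IFNAR1 in every cell from the germline on.

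Estrogen-related receptors bind DNA as orphan members of the steroid receptor superfamily and have no known natural hormone. They work with coactivators of the PGC-1 family, encoded by *Ppargc1a* and *Ppargc1b*, to drive genes of mitochondrial respiration, the tricarboxylic acid cycle and fatty acid oxidation. In the brain, PGC-1alpha is prominent in parvalbumin (PValb) interneurons, fast-firing inhibitory cells with a high demand for energy.

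The 8 libraries held 56780 barcodes, of which 52079 nuclei remained after filters and the removal of 2262 doublets. Deposited totals ranged from 44063346 to 58423423 UMIs per library, and any pair of libraries shared between 3 and 29 cell barcodes. The sex labels matched sex-linked transcripts in 8 of 8 libraries. *Ifnar1*, the targeted gene, lay between 16.2 and 19.9 CPM (UMIs of a gene divided by all UMIs of the same nuclei and scaled to a common total) in the Wt libraries and between 13.9 and 16.8 CPM in the Ifnar1-/- libraries, so the ranges overlapped. A 3′ count can fall outside the disrupted part of the gene and is no check of the genotype labels.

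Positions follow the mm10 (GRCm38) build. *Esrrg* (ENSMUSG00000026610) spans 606095 bases at chr1:187608791-188214885 on the plus strand. *Gm36388* (ENSMUSG00000103961, annotated as antisense) spans 34973 bases at chr1:187616852-187651824 on the minus strand and therefore lies within *Esrrg*, with 0 of its exons overlapping an *Esrrg* exon. *Esrrb* (ENSMUSG00000021255) lies at chr12:86361117-86521628 on the plus strand and *Esrra* (ENSMUSG00000024955) at chr19:6910977-6921813 on the minus strand. RefSeq places start sites of *Esrrg* and *Gm36388* in opposite directions close to each other, the nearest pair 88 bases apart and another pair 180 bases apart. The counts included unspliced RNA, and whether they were restricted to 1 strand is not given in the sources used here. Reads from the interval that both genes cover may therefore be assigned with uncertainty.

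**Figure D1:**
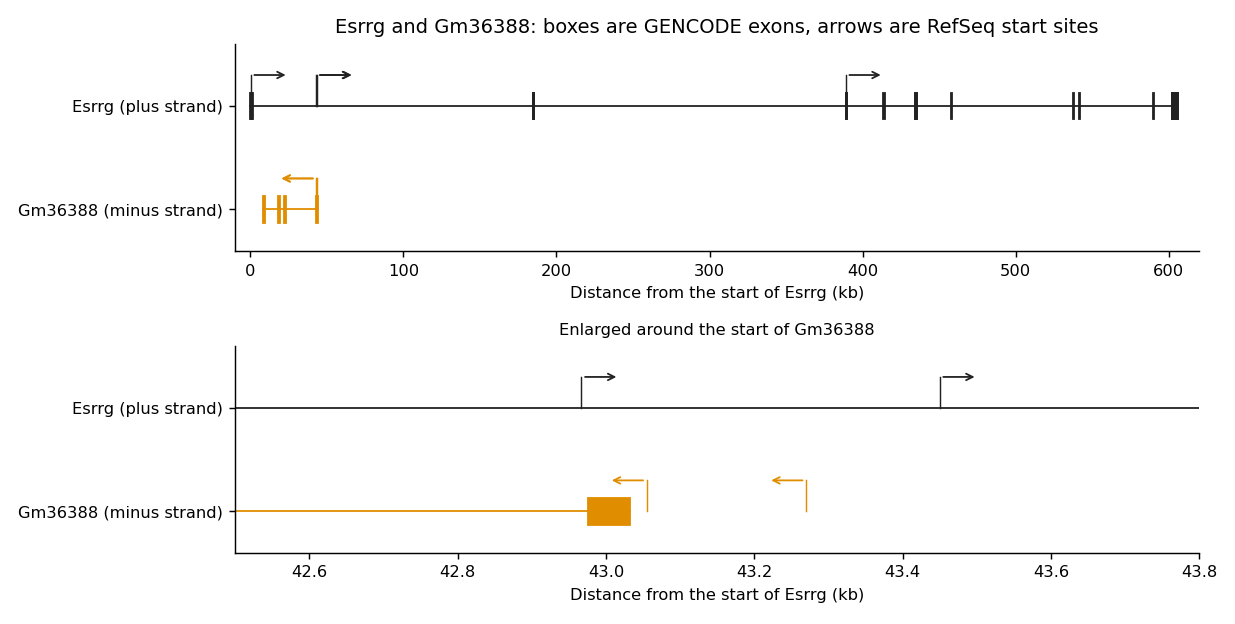
Position of *Esrrg* (black, plus strand) and *Gm36388* (orange, minus strand) by distance from the start of *Esrrg* in kb, with GENCODE exons as boxes and RefSeq start sites as arrows. The lower panel shows 2 *Gm36388* starts between 2 *Esrrg* starts that point the opposite way, the nearest pair 88 bases apart.

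Upstream sequences from RefSeq (GRCm38.p6) are shown for the nearest pair of opposed *Esrrg* and *Gm36388* starts and for the *Esrrg* start furthest into the gene. The start of *Esrrb* that held a motif match is shown as well. Each runs 5′ to 3′ on the strand of its gene over the 250 bases before the start, and capitals mark a motif match.

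Esrrg, chr1:187651508-187651757, plus strand: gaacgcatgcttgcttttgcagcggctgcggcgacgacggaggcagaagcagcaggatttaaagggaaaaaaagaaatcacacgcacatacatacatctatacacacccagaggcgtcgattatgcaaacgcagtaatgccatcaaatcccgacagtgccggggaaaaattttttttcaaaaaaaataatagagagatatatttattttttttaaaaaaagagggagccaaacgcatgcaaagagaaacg

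Gm36388, chr1:187651847-187652096, minus strand: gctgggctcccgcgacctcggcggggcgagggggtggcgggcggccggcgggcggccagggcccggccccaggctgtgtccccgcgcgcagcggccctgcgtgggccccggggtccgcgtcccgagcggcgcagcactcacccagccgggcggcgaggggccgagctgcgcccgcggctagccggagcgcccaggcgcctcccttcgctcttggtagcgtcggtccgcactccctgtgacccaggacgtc

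Esrrg, chr1:187997577-187997826, plus strand: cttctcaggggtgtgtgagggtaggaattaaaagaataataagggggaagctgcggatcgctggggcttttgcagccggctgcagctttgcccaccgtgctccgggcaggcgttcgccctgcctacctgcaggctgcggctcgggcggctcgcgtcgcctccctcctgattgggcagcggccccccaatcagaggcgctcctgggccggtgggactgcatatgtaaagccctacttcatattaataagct

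Esrrb, chr12:86360867-86361116, plus strand: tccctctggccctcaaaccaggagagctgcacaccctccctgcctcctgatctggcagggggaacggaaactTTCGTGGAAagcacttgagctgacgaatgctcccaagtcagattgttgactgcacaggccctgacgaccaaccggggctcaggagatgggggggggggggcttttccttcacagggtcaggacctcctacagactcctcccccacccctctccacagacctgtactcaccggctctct

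These windows were searched on both strands for 3 motifs. They were the interferon-stimulated response element (ISRE, GAAANNGAAA), the estrogen-related receptor element (ERRE, TNAAGGTCA) and the gamma-activated sequence (GAS, TTCNNNGAA). All 4 genes had RefSeq windows, 9 in total. They were not all separate sequences: 1 *Esrrg* window shared 106 and 179 bases with the 2 *Gm36388* windows. The *Gm36388* windows also overlapped each other, so some bases were searched more than once. The ISRE letters were in 0 of the 9 windows and in 2.98% of 32851 windows of all genes, and the ERRE letters were in 0 of the 9 and in 1.14% of all. The GAS letters were in 1 of the 9, upstream of *Esrrb*, and in 7.02% of all. The windows of the 2 *Gm36388* starts were 81.2% and 52.8% G and C, and those of the *Esrrg* starts nearest to each were 41.6% and 63.6%. A match or its absence describes only these letters in these windows.

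Nuclei were grouped into 37 clusters, of which 18 named classes are used here, with the 4 genes left out of the clustering input. The glutamatergic neurons fitted below took in all 16 glutamatergic clusters, 8 of them with no subclass name. The GABAergic neurons fitted below held only the named PValb, Sst, Vip and Lamp5 interneurons. Outside the glutamatergic neurons, 9 unnamed clusters with 5656 nuclei, inhibitory neurons among them, were in no class. The level of a gene in a class is its share of the UMIs of that class in 1 library, in CPM, and class levels are described by their mean and range over the 8 libraries. *Esrrg* was highest in PValb interneurons, at 837 ± 56.8 CPM (SD, n = 8), with libraries between 758 and 897 CPM. No library of another named class reached that range: layer 6 corticothalamic (L6 CT) neurons followed at 459 ± 28.3 CPM, with a highest library of 492 CPM. Striatal projection neurons (445 ± 47.2 CPM), layer 5 extratelencephalic (L5 ET) neurons (445 ± 46.8 CPM) and layer 5/6 near-projecting (L5/6 NP) neurons (426 ± 43.5 CPM) overlapped with L6 CT neurons and with each other. Striatal projection neurons are not cortical cells, and their markers were present in these nuclei labelled as cortex.

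A second step lay between L6b neurons, at 301 to 371 CPM, and layer 5 intratelencephalic (L5 IT) neurons, at 212 to 289 CPM. Somatostatin (Sst), Lamp5 and vasoactive intestinal peptide (Vip) interneurons followed at mean levels of 209.8, 209.8 and 177 CPM. Upper-layer neurons were the lowest of the neurons, with L4 IT neurons at 79.3 ± 8.3 CPM and L2/3 IT neurons at 74.4 ± 5.7 CPM, and the ranges of these 2 classes overlapped. Within the glutamatergic neurons, the deep-layer L6 CT, L5 ET, L5/6 NP and L6b libraries were thus all above those of L4 IT and L2/3 IT neurons. Mature oligodendrocytes had the lowest level, 9.65 ± 3.92 CPM.

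Detection per nucleus followed the same pattern. A UMI of *Esrrg* was found in 95.7% of 2080 PValb nuclei (median depth 7893 UMIs), 90.5% of 3337 L6 CT nuclei (7883 UMIs) and 37.5% of 4538 L2/3 IT nuclei (8769 UMIs). Thinned to 1000 UMIs per nucleus, the expected shares were 52.4%, 34.8% and 6.43%. In oligodendrocytes, a class at the floor of the *Esrrg* levels, the share was 2.03% of 7088 nuclei at a median of 2056.5 UMIs and 0.949% after thinning. Single PValb nuclei held up to 39 *Esrrg* UMIs and single L5 ET nuclei up to 47. Outside the named classes, an unnamed cluster of 369 nuclei led by *Tac1*, *Drd3* and *Gpr149* had 754.5 CPM of *Esrrg*.

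*Esrrb*, a receptor best known from pluripotent stem cells and the placenta, was sparse, with 914 UMIs in all nuclei used against 12189 of *Esrra*, 90491 of *Esrrg* and 6866 of *Gm36388*. These totals depend on gene length and 3′ capture and give no order between genes. PValb interneurons held *Esrrb* at 15.8 ± 2.8 CPM, with libraries between 12.1 and 19.95 CPM. Every library of every other named class except 1 was below that range, the exception being 1 oligodendrocyte precursor library at 13.8 CPM whose class had few nuclei. In the class that came next, Vip interneurons, the mean was 3.38 CPM and the highest library 8.29 CPM. Outside the named classes, an unnamed glutamatergic cluster of 32 nuclei led by *Sim1* had 22.2 CPM of *Esrrb*. In microglia 0 of 4386 nuclei had an *Esrrb* UMI, which allows a share of nuclei with a UMI of up to 0.0684% (3 counts of the total, counting error only) at a median of 1472 UMIs and sets no limit on nuclei that express the gene.

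*Esrra*, the most widely expressed member of the family, had the smallest ratio between its highest and lowest class means. Its mean lay between 26.3 CPM in Vip interneurons and 51.2 CPM in PValb interneurons across the 13 neuronal subclasses, and the ranges of neighbours in the order overlapped throughout the 18 classes. Among the named classes, the highest mean was in microglia, 56.3 ± 8.63 CPM, and the lowest in mature oligodendrocytes, 12.4 ± 3.28 CPM. Those 2 ranges, 41.7 to 68.6 CPM and 8.07 to 18.0 CPM, did not overlap. The microglial range overlapped with that of the PValb interneurons, which led for the other 2 receptors.

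*Gm36388* followed *Esrrg* from class to class. Among the named classes it was highest in PValb interneurons, at 44.1 ± 14.9 CPM. It was low in L2/3 IT neurons (8.11 ± 1.57 CPM), microglia (6.65 ± 3.71 CPM) and oligodendrocytes (2.94 ± 1.97 CPM). The unnamed cluster led by *Tac1*, *Drd3* and *Gpr149* had 49.25 CPM of *Gm36388* with its nuclei pooled, against 42.39 CPM for pooled PValb interneurons. Across the 18 classes, log2(CPM + 1) of the 2 genes had a Pearson correlation of 0.96, given as a description because the classes come from the same libraries. For comparison, *Esrrg* had a correlation of 0.51 with *Esrrb* and 0.62 with *Esrra*. Its wide spread within PValb interneurons separated by genotype, as described below.

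Among 14034 genes with at least 10 CPM in a class, the 5 most like *Esrrg* over the 18 classes, members aside, were *Snph* (r = 0.91), *Ttc19* (r = 0.89), *Sclt1* (r = 0.89), *Mir124-2hg* (r = 0.89) and *Cstf2* (r = 0.89). *Snph* encodes syntaphilin, which anchors axonal mitochondria, and *Ttc19* a factor of respiratory complex III. Genes most like *Gm36388* included *Cntnap1* (r = 0.94), *Sclt1* (r = 0.92), *Peg3* (r = 0.92) and *Syt3* (r = 0.92). For *Esrrb* they were *Adamts15*, *Shh*, *Pde5a*, *Catsperd* and *Rufy3* (r = 0.82 to 0.86), and for *Esrra* they were *Ap1b1*, *Alas1*, *Kif3b*, *Zdhhc18* and *Trpm2* (r = 0.87 to 0.93). Each gene named here for *Esrrg*, *Esrrb* or *Gm36388* had its highest mean in PValb interneurons.

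**Figure D2:**
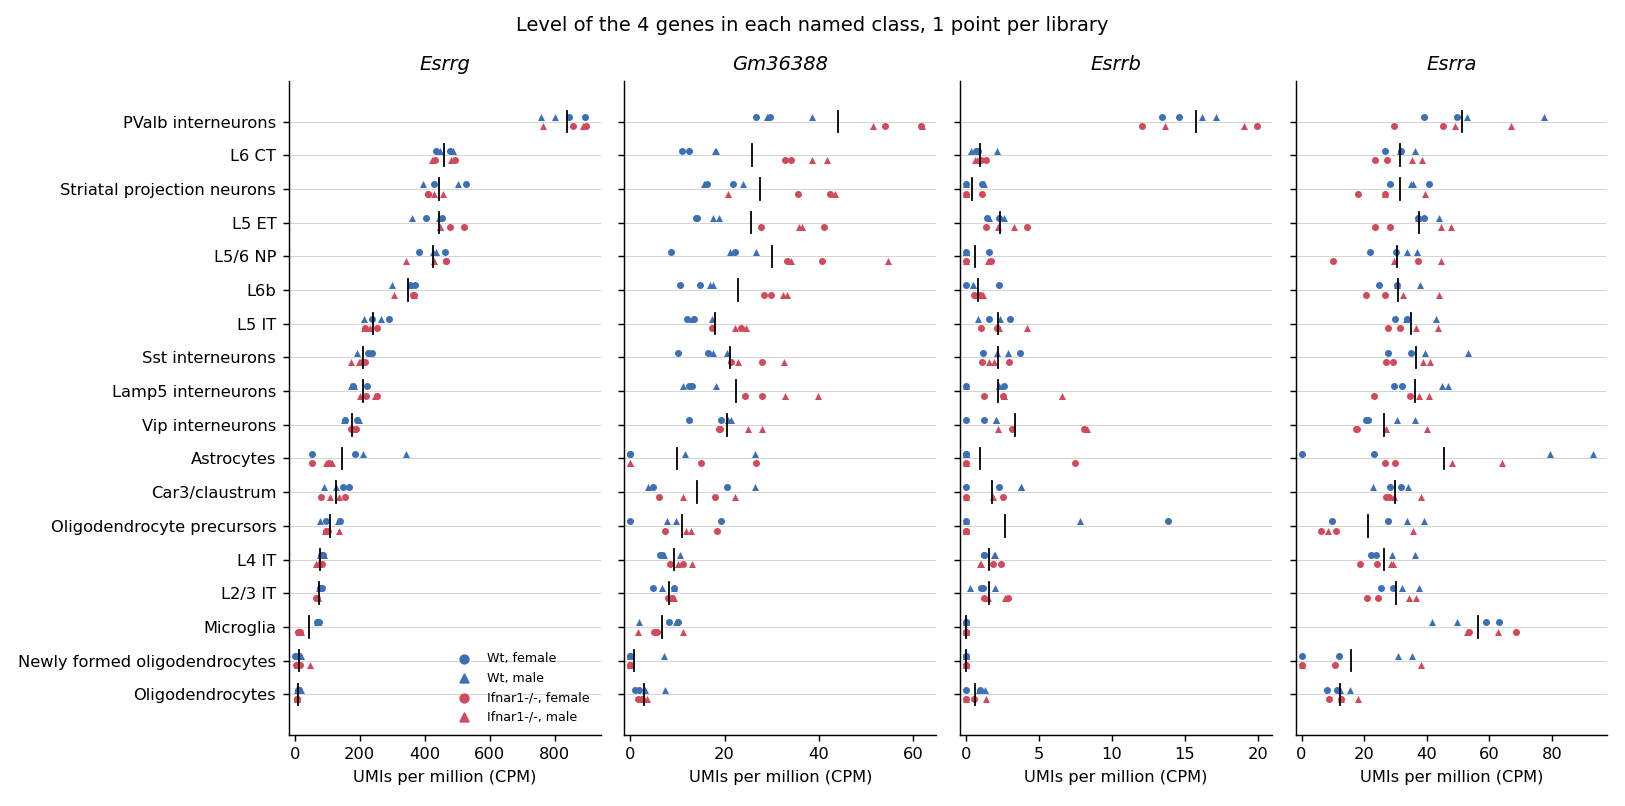
Level of each gene in CPM (horizontal axis, a scale of its own per gene) in 18 named classes, ordered by the mean of *Esrrg*, with 1 point per library (blue Wt, red Ifnar1-/-, circles females, triangles males) and the mean of 8 libraries as a bar. *Esrrg* and *Esrrb* were highest in PValb interneurons, *Esrra* was spread over most classes, and the red points of *Gm36388* lie to the right of the blue ones in L6 CT, L5 ET and PValb neurons.

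In microglia, where the genes were chosen, *Esrrg* was at 68.8, 75.2, 70.6 and 67.4 CPM in the Wt libraries F1, F2, M1 and M2 (82, 55, 39 and 76 UMIs). In the Ifnar1-/- libraries F1, F2, M1 and M2 it was at 11.4, 14.9, 19.7 and 11.8 CPM (2, 12, 16 and 15 UMIs). The lowest Wt library thus stood above the highest Ifnar1-/- library in both sexes, and the Ifnar1-/- F1 value rests on only 156 nuclei. The fitted log2 fold change was -2.24 ± 0.24 (SE, n = 4 and 4), and leaving out each library in turn gave -2.44 to -2.07. In this contrast, edgeR called 0.105% of 9560 genes, and the libraries did not overlap, with lower values in Ifnar1-/- mice, for 1.05% of 8783 genes with at least 100 UMIs. Both shares stand here as background only.

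The share of microglial nuclei with an *Esrrg* UMI was 8.22% of 2420 Wt nuclei and 1.93% of 1966 Ifnar1-/- nuclei, with exact binomial 95% intervals of 7.16 to 9.39% and 1.37 to 2.64% that cover counting error only. Thinned to 1000 UMIs, the shares were 6.04% and 1.37%. Median depths were similar, 1430 and 1515.5 UMIs. Oligodendrocytes, with a median of 2045 UMIs in Wt and 2065.5 UMIs in Ifnar1-/- mice, had thinned shares of 1.24% and 0.657%. The Ifnar1-/- microglia were thus near the oligodendrocyte share, and the Wt microglia above it.

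Neurons hold much *Esrrg*, and 13 neuronal genes were summed in the same nuclei as a rough measure of neuronal RNA. In microglia their sum ranged from 2222 to 6593 CPM in the Wt libraries and from 2455 to 4583 CPM in the Ifnar1-/- libraries, so the groups overlapped. All 13 genes were detected in every microglial library, and 8 of 13 had a higher mean in Wt microglia. *Slc17a7*, which encodes the vesicular transporter that defines cortical glutamatergic neurons, was at 62.9 to 132 CPM and at 39.8 to 143 CPM. In oligodendrocytes the sum was higher, 5420 to 7855 CPM over both genotypes, with *Esrrg* at 6.53 to 18.2 CPM. *Slc17a7* was not higher there, at 25.0 to 104 CPM. Oligodendrocyte precursors had a sum of 18503 to 25009 CPM, with *Slc17a7* at 19.2 to 110 CPM and *Esrrg* at 76.7 to 138 CPM. The sum and *Slc17a7* thus ranked these glial classes differently, and how much of the sum is neuronal RNA was not tested.

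Per 1000 UMIs of the 13 neuronal genes, Wt microglia held 10.7 to 33.9 *Esrrg* UMIs, Ifnar1-/- microglia 3.29 to 6.08, neurons 4.50 to 5.18 and oligodendrocytes 1.11 to 2.32. Among Wt microglia, the 199 nuclei with an *Esrrg* UMI had a median of 6 neuronal UMIs, as had the 2221 nuclei without one. In the nuclei with at most 1 UMI of the neuronal genes, *Esrrg* was at 101 CPM in 150 Wt nuclei (21 UMIs, exact Poisson 95% interval 62.6 to 155 CPM) and at 12.7 CPM in 103 Ifnar1-/- nuclei (2 UMIs, 1.54 to 45.8 CPM). In nuclei up to the median of 5 neuronal UMIs the levels were 69.5 and 15.4 CPM. These intervals pool nuclei of 4 libraries and cover counting error only.

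**Figure D3:**
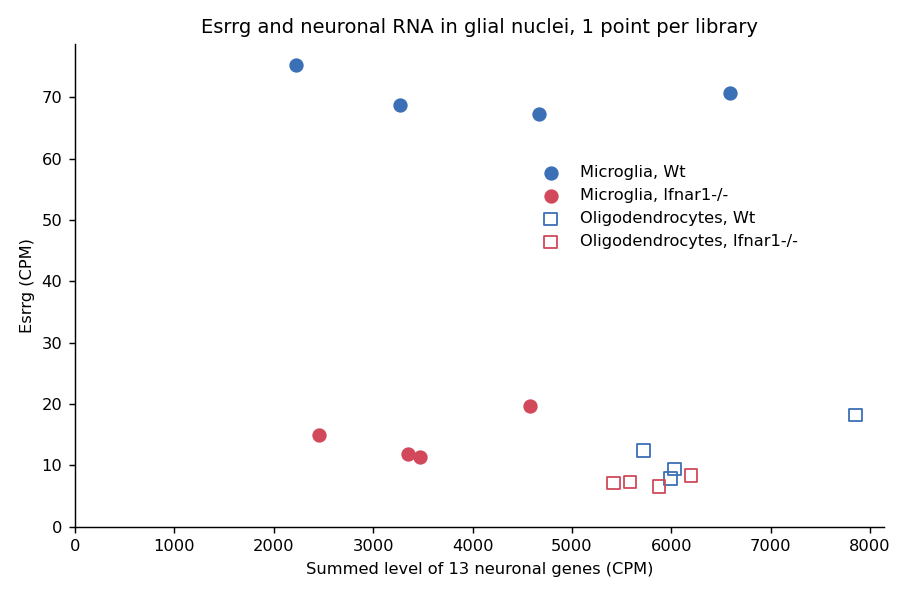
*Esrrg* level (CPM, vertical axis) against the summed level of 13 neuronal genes (CPM, horizontal axis) in microglia (filled circles) and oligodendrocytes (open squares), 1 point per library, blue Wt and red Ifnar1-/-. The Wt microglia lie at 67.4 to 75.2 CPM over their whole range of the sum, and all other points lie at or below 19.7 CPM.

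The other members overlapped between the genotypes in microglia or had no UMI there. *Esrra* was at 41.7 to 62.9 CPM in Wt and at 52.8 to 68.6 CPM in Ifnar1-/- libraries, with a fitted log2 fold change of 0.11 ± 0.21. *Gm36388* was at 10.1, 8.21, 1.81 and 9.75 CPM in Wt F1, F2, M1 and M2 and at 5.71, 4.98, 11.1 and 1.57 CPM in Ifnar1-/- F1, F2, M1 and M2, which overlapped. These values come from 30 and 16 UMIs, and the gene did not pass the filter on low counts there. *Ifnar1* itself was at 53.9 ± 8.31 CPM in Wt and 29.6 ± 5.53 CPM in Ifnar1-/- microglia.

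A cluster of 114 nuclei carried both microglial and neuronal genes at a median of 6517 UMIs and was left out of microglia. It held *Esrrg* at 319 CPM. It had 30 Wt and 84 Ifnar1-/- nuclei, and 63.2% of it came from the Ifnar1-/- F1 library.

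In glutamatergic, GABAergic and PValb neurons, the libraries of the genotypes stood apart for *Gm36388* and overlapped for *Esrrg*. In glutamatergic neurons, *Gm36388* was at 9.06, 10.2, 14.0 and 11.9 CPM in Wt F1, F2, M1 and M2. It was at 18.7, 17.8, 22.1 and 20.7 CPM in Ifnar1-/- F1, F2, M1 and M2. All Ifnar1-/- libraries were above all Wt libraries, which held for 0.655% of 17867 genes with at least 100 UMIs in this direction. The log2 fold change was 0.83 ± 0.14 (SE, n = 4 and 4), a 1.78-fold higher level in Ifnar1-/- mice, and edgeR's quasi-likelihood test over all genes gave an unadjusted p of 0.000244 and, by Benjamini-Hochberg, an adjusted p of 0.216. At the threshold of 0.05 this test called 0.0432% of 18528 genes and not *Gm36388*.

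GABAergic neurons gave similar values, with *Gm36388* at 21.5, 17.6, 26.8 and 21.2 CPM in Wt F1, F2, M1 and M2. Ifnar1-/- F1, F2, M1 and M2 were at 37.3, 33.3, 38.6 and 39.4 CPM. The groups did not overlap (0.796% of 13952 genes in this direction), and the log2 fold change was 0.79 ± 0.13, with an adjusted p of 0.245 in edgeR. The test called 0.0275% of 14558 genes there.

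In PValb interneurons, which are part of the GABAergic class, *Gm36388* was at 29.5, 26.7, 38.4 and 28.9 CPM in Wt F1, F2, M1 and M2. In Ifnar1-/- F1, F2, M1 and M2 it was at 61.7, 54.0, 61.8 and 51.5 CPM, again with no overlap (0.851% of 11160 genes). The log2 fold change was 0.91 ± 0.14, a 1.87-fold higher level, with an adjusted p of 0.135 in edgeR, which called 0.0339% of 11797 genes.

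The call for *Gm36388* depended on the model, while the fold change did not. With sex as a covariate, the edgeR adjusted p was 0.0120 in glutamatergic, 0.0449 in GABAergic and 0.0238 in PValb neurons, in fits that called 0.135%, 0.0687% and 0.0848% of genes. With the replicate name as a block, it was 0.0686, 0.162 and 0.0353. DESeq2 without a covariate gave 1.98e-05, 0.000320 and 0.00107 and called 0.232%, 0.117% and 0.0848% of genes. Within females alone the mean was 1.89, 1.81 and 2.06 times that of Wt in the 3 classes, and within males 1.66, 1.62 and 1.68 times, with no overlap in either sex. Over all alternatives the log2 fold change stayed between 0.71 and 1.01.

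The mean of *Gm36388* was higher in Ifnar1-/- mice in 13 of 13 neuronal subclasses, which share their libraries, with ratios of 1.03 to 2.46. The libraries of the genotypes stood apart in 7 of these subclasses and overlapped in 6, namely L2/3 IT, L4 IT, L5 IT, Car3/claustrum, Vip and striatal projection neurons. The ratio was 2.46 in L6 CT neurons (36.8 ± 4.09 against 14.9 ± 3.73 CPM), 2.19 in L5 ET neurons (35.2 ± 5.57 against 16.1 ± 2.53 CPM) and 2.27 in Lamp5 interneurons. It was lowest in Car3/claustrum neurons, at 1.03, and in L2/3 IT neurons, at 1.14. In oligodendrocytes the means were 3.32 CPM in Wt and 2.56 CPM in Ifnar1-/- mice, with overlapping ranges. Whether the effect differs between classes was not tested, and the share of all genes that stood apart was not counted for the subclasses other than PValb interneurons.

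*Esrrg*, on the other strand, overlapped between the genotypes in these 3 classes and in 12 of the 13 neuronal subclasses. The exception was L2/3 IT neurons, at 73.7 to 84.1 CPM in Wt and 66.9 to 72.4 CPM in Ifnar1-/- libraries, a narrow margin. This subclass was not tested, and the share of all genes that stood apart there was not counted. In glutamatergic neurons it was at 225, 219, 227 and 208 CPM in Wt F1, F2, M1 and M2 and at 205, 226, 202 and 212 CPM in Ifnar1-/- F1, F2, M1 and M2. The log2 fold change was -0.04 ± 0.07 with an adjusted p of 1.00 in edgeR, and 2 SE on either side reached from -0.18 to 0.10. In GABAergic neurons it was -0.05 ± 0.11 (2 SE from -0.28 to 0.17) and in PValb interneurons 0.06 ± 0.11 (2 SE from -0.16 to 0.27), each with an adjusted p of 1.00.

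In oligodendrocytes *Esrrg* was at 9.43, 12.4, 18.2 and 7.84 CPM in Wt F1, F2, M1 and M2 and at 6.53, 7.14, 8.33 and 7.27 CPM in Ifnar1-/- F1, F2, M1 and M2. The highest Ifnar1-/- library exceeded the lowest Wt library. The log2 fold change was -0.69 ± 0.29, with an unadjusted p of 0.0367 and an adjusted p of 1.00 in edgeR, which called 0.0631% of 11097 genes. The sum of the neuronal genes in oligodendrocytes was 5720 to 7855 CPM in Wt and 5420 to 6201 CPM in Ifnar1-/- libraries, so the groups overlapped. The Wt M1 library was highest for both *Esrrg* and the sum. Wt F2, which came next for *Esrrg*, had the lowest sum of the Wt libraries. The part of neuronal RNA in the difference was not tested.

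**Figure D4:**
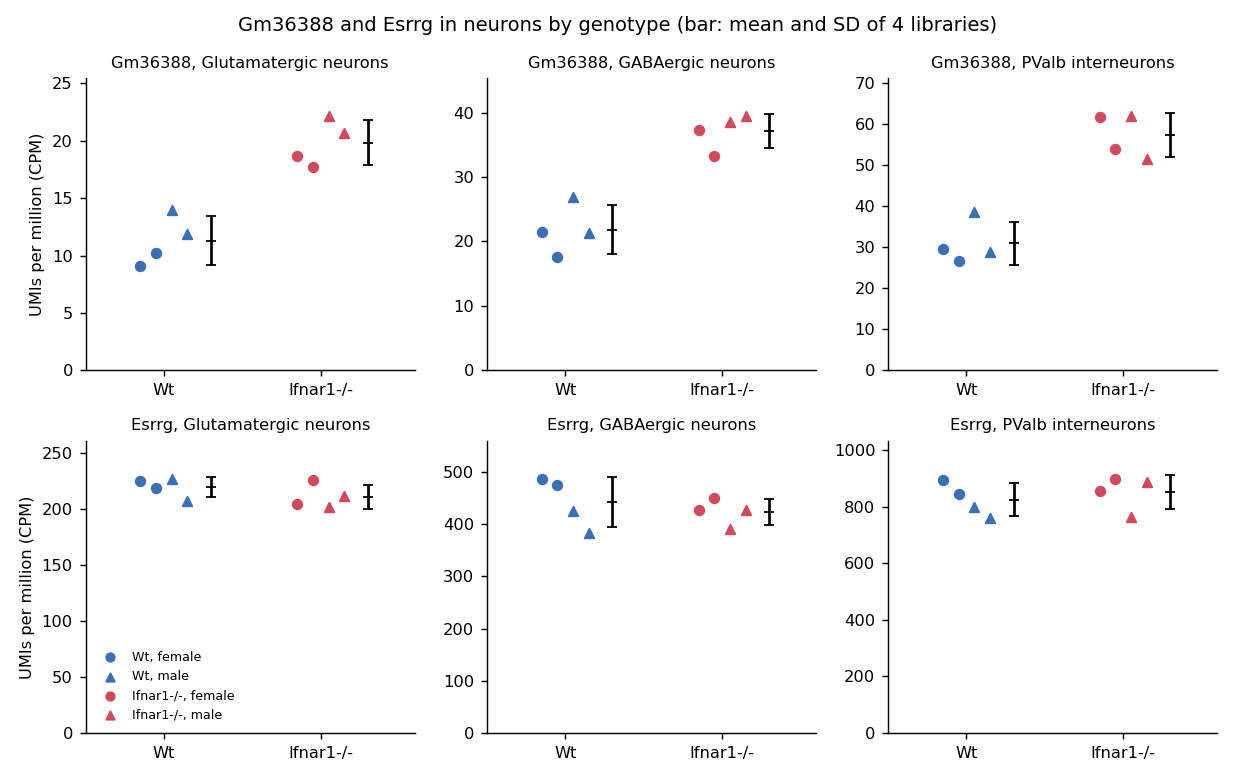
*Gm36388* (upper row) and *Esrrg* (lower row) in CPM in glutamatergic, GABAergic and PValb neurons of Wt (blue) and Ifnar1-/- (red) mice, 1 point per library (circles females, triangles males), with the mean and SD of 4 libraries beside them. For *Gm36388* all red points lie above all blue points in the 3 classes, and for *Esrrg* the colours overlap.

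*Esrrb* was at 1.40, 1.32, 1.88 and 1.17 CPM in glutamatergic neurons of Wt F1, F2, M1 and M2. It was at 1.92, 2.05, 2.08 and 1.98 CPM in those of Ifnar1-/- F1, F2, M1 and M2. The groups did not overlap by a narrow margin, where 0.655% of 17867 genes with at least 100 UMIs stood apart in this direction. The log2 fold change of 0.49 ± 0.18 had an unadjusted p of 0.0237 and an adjusted p of 1.00 in edgeR. An unadjusted p under 0.05 was reached by 330 of all 18528 genes tested there. In PValb interneurons, the named class with the highest mean, *Esrrb* was at 13.5 to 17.1 CPM in Wt and 12.1 to 19.95 CPM in Ifnar1-/- libraries, with a log2 fold change of 0.09 ± 0.21. Of the 13 neuronal subclasses, the genotypes stood apart for *Esrrb* in 1, Vip interneurons. Levels there were 0 to 2.08 CPM in Wt (5 UMIs) and 2.17 to 8.29 CPM in Ifnar1-/- libraries (18 UMIs). This subclass was not tested, and the share of all genes that stood apart there was not counted.

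*Esrra* overlapped between the genotypes in all 5 classes fitted. Its log2 fold change was -0.06 ± 0.17 in glutamatergic, -0.19 ± 0.20 in GABAergic and -0.18 ± 0.23 in PValb neurons and 0.15 ± 0.26 in oligodendrocytes, each with an adjusted p of 1.00 in edgeR. In neurons and oligodendrocytes edgeR without a covariate called 0 of the members by genotype, where it called 0.0275% to 0.0631% of all genes, and DESeq2 without a covariate called *Gm36388* in the 3 neuronal classes.

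The partners and targets of the receptors were examined in the same fits. Of 14 coactivators, corepressors and other cofactors, 10 or 11 were tested per class, and 0 were called by genotype in any of the 5 classes. *Ppargc1a*, which encodes PGC-1alpha, was at 226 ± 16.1 CPM in Wt and 248 ± 23.7 CPM in Ifnar1-/- PValb interneurons (log2 fold change 0.15 ± 0.12). Of 30 target genes of mitochondrial respiration and metabolism, 28 were tested in neurons and oligodendrocytes and 24 in microglia, and 0 were called in any class. Over all genes edgeR called 0.0275% to 0.105% by genotype in the 5 classes, so that a count of 0 in lists of this size is at the background. Their median log2 fold change was -0.05 in glutamatergic neurons, -0.03 in PValb interneurons and 0.12 in microglia, against 0.00 over all genes. An unadjusted p under 0.05 was reached by 0 of the target genes in each class and by 1 of the cofactors, *Prox1* in GABAergic neurons (log2 fold change 0.31 ± 0.12), where 268 of all 14558 genes tested reached it.

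In PValb interneurons, genes known to depend on PGC-1alpha were not called by genotype either (0 of 5 tested, against 0.0339% of all genes). *Pvalb*, the calcium buffer that names these cells, was at 94.9 ± 34.5 CPM in Wt and 71.4 ± 22.9 CPM in Ifnar1-/- mice, with a log2 fold change of -0.39 ± 0.26. The synaptic vesicle gene *Syt2* and the complexin gene *Cplx1* had log2 fold changes of -0.03 ± 0.13 and 0.07 ± 0.11.

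The genes next to *Esrrg* were examined as well. Within 1 Mb of *Esrrg*, 17 further genes were annotated, of which 12 were tested in glutamatergic neurons and 4 in microglia, and 0 were called by genotype in any class, again at the background of 0.0275% to 0.105% of all genes. In microglia, *Gpatch2* had a log2 fold change of -0.03 ± 0.17, *Kctd3* of 0.03 ± 0.37, *Rrp15* of -0.11 ± 0.47 and *Kcnk2* of 0.60 ± 0.50. In PValb interneurons *Gpatch2* was at 0.11 ± 0.11 and *Kcnk2* at -0.16 ± 0.31. An unadjusted p under 0.05 was reached by 0 of them in each class. DESeq2 and edgeR with sex as a covariate also called 0 genes of these lists by genotype in any of the 5 classes.

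Sex was compared with genotype as a covariate, and anything handled along with sex cannot be told apart from it. Sex-associated differences were widespread: edgeR called 30.4% of genes in glutamatergic, 25.4% in GABAergic and 20.9% in PValb neurons, 22.8% in oligodendrocytes and 19.7% in microglia. Against that background, *Esrra* was higher in males in neurons. In glutamatergic neurons it was at 29.6, 27.3, 22.3 and 26.1 CPM in the females Wt F1, Wt F2, Ifnar1-/- F1 and Ifnar1-/- F2, and at 33.1, 38.4, 38.2 and 35.2 CPM in the males Wt M1, Wt M2, Ifnar1-/- M1 and Ifnar1-/- M2. All males were above all females, and the log2 fold change was 0.41 ± 0.10, with an adjusted p of 0.0115 in edgeR. The share of all genes that stood apart by sex in this way was not counted.

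The same comparison of *Esrra* gave 0.48 ± 0.12 in GABAergic neurons (adjusted p 0.0128) and 0.50 ± 0.16 in PValb interneurons (adjusted p 0.0415) in edgeR. The GABAergic call was lost without Wt M2 (adjusted p 0.0578 in edgeR). The PValb call was lost in DESeq2, at an adjusted p of 0.0753, and without Wt F2, Wt M2, Ifnar1-/- F1 or Ifnar1-/- M1 (adjusted p 0.108 to 0.191 in edgeR). In oligodendrocytes *Esrra* had 0.42 ± 0.23 and in microglia -0.24 ± 0.18, with adjusted p of 0.213 and 0.394 in edgeR. *Esrrg* went the other way in GABAergic neurons, at 459.7 CPM on average in females and 406 CPM in males. The sexes did not overlap there, in a class where edgeR called 25.4% of all genes by sex. The log2 fold change was -0.25 ± 0.07, with an adjusted p of 0.0225 in edgeR. That call was lost without Wt F1, Wt F2, Wt M2 or Ifnar1-/- M1 (adjusted p 0.0630 to 0.0850 in edgeR). In PValb interneurons the value was -0.21 ± 0.08 (adjusted p 0.0615) and in glutamatergic neurons -0.10 ± 0.06 (adjusted p 0.238) in edgeR.

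*Gm36388* was not called by sex in edgeR, with log2 fold changes of 0.27 ± 0.10 in glutamatergic (adjusted p 0.0709), 0.14 ± 0.12 in GABAergic (adjusted p 0.427) and 0.01 ± 0.14 in PValb neurons (adjusted p 0.957). *Esrrb* lay between 0.00 and 0.05 in the 3 neuronal classes, with SEs of 0.17 to 0.21. Of the 28 target genes tested in glutamatergic neurons, 12 were higher and 1 was lower in males, where 30.4% of all genes were called. The higher ones included the respiratory chain genes *Cox5b* (1.80 ± 0.26), *Uqcrfs1* (1.82 ± 0.14) and *Atp5a1* (1.37 ± 0.11), and the lower one was *Ckmt2* (-0.71 ± 0.20), a mitochondrial creatine kinase. In microglia the summed neuronal genes were at 3350 to 6593 CPM in males and 2222 to 3473 CPM in females, which overlapped, and 5 of the 13 were called as higher in males. The part of this in the sex differences was not tested.

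**Figure D5:**
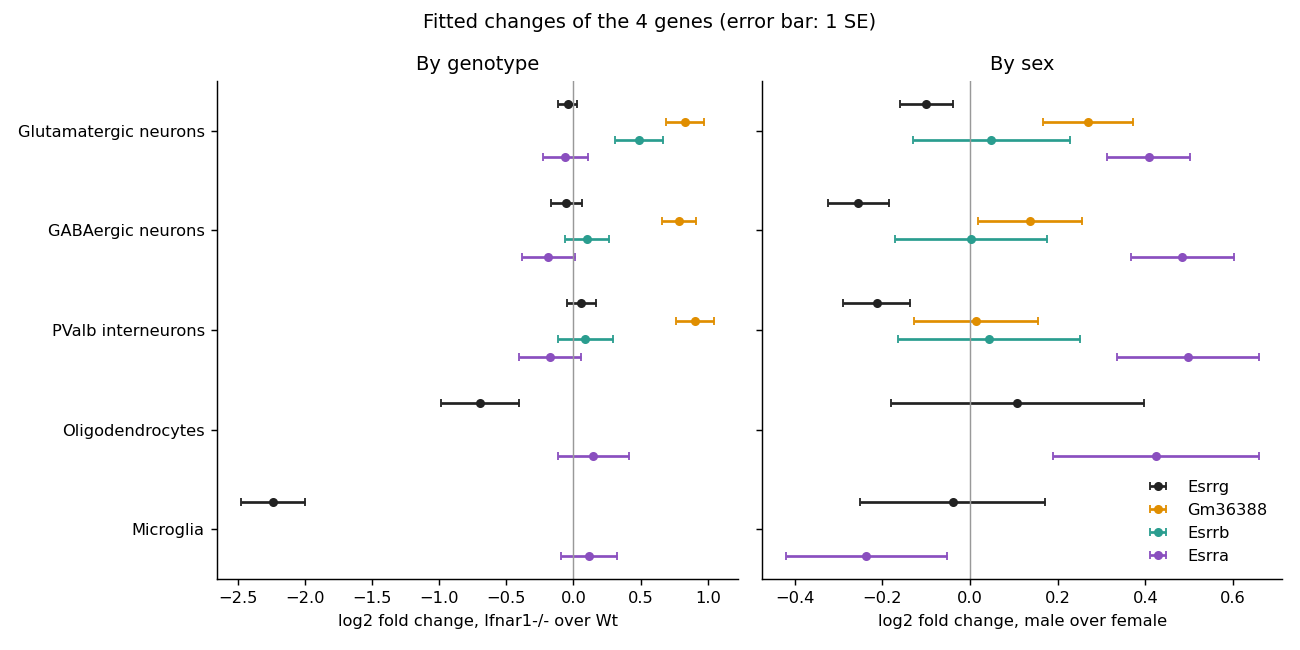
Fitted log2 fold changes of the 4 genes (points) with 1 SE (bars) in 5 classes, on the left Ifnar1-/- over Wt and on the right male over female, with genes that did not pass the filter on low counts left out. *Gm36388* lies near 0.8 to 0.9 by genotype in the 3 neuronal classes, *Esrrg* at -2.24 in microglia, and *Esrra* between 0.41 and 0.50 by sex in neurons.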

How the data were processed

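Nuclei from the cortex of 8 mice were sequenced by 10x 3′ snRNA-seq. The authors deposited raw UMI counts per gene and nucleus, made with Cell Ranger 3.1.0 and a custom mm10 pre-mRNA reference, and analysed them in Seurat 3.1.5. From these counts, nuclei with 200 to 6000 genes, at least 1000 UMIs and at most 10% mitochondrial UMIs were kept, doublets were removed with Scrublet, and nuclei were clustered in scanpy 1.11.5 (3000 variable genes without the 4 members, 40 components, resolution 1). A cluster took the name of the cell type with the most markers among its top genes, if no other type tied. At least 3 markers of that type had to be raised against the other clusters, with a minimum mean score. Candidate types were set by the levels of *Slc17a7* and *Gad1*, and a named class needed at least 100 nuclei. UMIs were summed per library and class. Each mouse was 1 replicate.

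Genotype was tested with edgeR 4.0.16 (quasi-likelihood, TMM, filterByExpr, no covariate) in R 4.3.3 over all genes with Benjamini-Hochberg adjustment at 0.05, and sex with genotype as a covariate. DESeq2 1.42.0, other scaling, no filter, sex as a covariate, a replicate block, doublets kept, a clustering resolution of 0.5 and leaving out each library were tried. SEs of edgeR values were derived from the F statistic. The fits were checked on simulated counts.

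The members and gene lists were chosen with earlier results of these data known. The named genes were the members, the genes most like each across classes, and list members with their values. Genes beyond these, such as those with an unadjusted p under 0.05, were named after their values were seen. Libraries that share a replicate name also share sex. Their deviations from the group means correlated at 0.18 to 0.73 in 20 of 20 pairs, and at -0.42 to 0.079 within sex. Sex and anything handled along with it cannot be told apart in this pairing. Some genes are not reported here.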

Additional observations from a re-analysis of the deposited data

How the results depend on the processing

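The log2 fold change of *Gm36388* by genotype kept its direction under every alternative but was called only under some. It was 0.79 in GABAergic neurons with DESeq2 and 0.79 with sex as a covariate, 0.83 and 0.84 in glutamatergic neurons, and 0.91 and 0.90 in PValb interneurons, where the replicate block also called it at 0.91. The block changed no other call of a member. Over all alternatives its adjusted p reached 0.731 in glutamatergic, 0.884 in GABAergic and 0.459 in PValb neurons. By sex, *Esrra* in PValb interneurons lost its call at 0.49 with DESeq2 and 0.49 with doublets kept, and *Esrrg* there gained one at -0.24 with doublets kept. *Esrrb* by sex turned to -0.0098 with DESeq2, -0.0099 with DESeq2 size factors and -0.065 with doublets kept in GABAergic neurons, and to -0.028 with doublets kept in PValb interneurons. The causes were not tested.

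Without 1 library, log2 fold changes by genotype ranged from -0.12 to 0.0042 for *Esrrg* in GABAergic neurons, from -0.17 to 0.050 for *Esrra* in glutamatergic neurons, from -0.36 to 0.017 in PValb interneurons and from -0.057 to 0.29 in oligodendrocytes, and from -0.029 to 0.20 for *Esrrb* in PValb interneurons. By sex they ranged from 0.40 to 0.58 for *Esrra* in GABAergic neurons and 0.38 to 0.62 in PValb interneurons. For *Esrrb* they ranged from -0.072 to 0.078 in GABAergic neurons, -0.10 to 0.16 in glutamatergic neurons and -0.044 to 0.20 in PValb interneurons. For *Esrrg* they ranged from -0.31 to -0.21 in GABAergic neurons, -0.28 to -0.17 in PValb interneurons, -0.099 to 0.025 in microglia and -0.19 to 0.32 in oligodendrocytes, and for *Gm36388* from -0.092 to 0.098 in PValb interneurons.

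With a clustering resolution of 0.5, *Esrrg* was at 66.7 CPM in L2/3 IT neurons and 194 CPM in the cluster named Vip interneurons. It was at 73.5 CPM in the cluster named newly formed oligodendrocytes, where *Esrrb* was at 1.68 and *Gm36388* at 7.15 CPM. Both named clusters were larger than before, with 2282 nuclei against 1190 and 665 against 211. Their top genes now included *Pde11a* and *Pdgfra*, and Lamp5 interneurons and oligodendrocyte precursors had no named cluster of their own. With doublets kept, *Esrrg* was at 31.0 CPM in newly formed oligodendrocytes and 144 CPM in oligodendrocyte precursors. The other 113 comparisons of a gene, class and setting moved by less than 1 SD between libraries. Classes with no named cluster in a setting were not compared. These were L6b neurons in both settings and, at a resolution of 0.5, also Lamp5 interneurons, striatal projection neurons, oligodendrocyte precursors and astrocytes.

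Genes called by genotype numbered 8 in glutamatergic neurons, 43 with DESeq2 and 25 with sex as a covariate, 4, 17 and 10 in GABAergic neurons, 4, 10 and 10 in PValb interneurons, and 7, 14 and 18 in oligodendrocytes. The replicate block gave 9 in PValb interneurons, 14 in oligodendrocytes and 17 in microglia against 10, and no filter on low counts gave 9, 12 and 22. Microglia with at most 1 neuronal UMI gave 1 called gene, and their counts were too low for a fit of the members. Sparse counts limit *Esrrb* and, in glia, *Gm36388*.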
